A study of Mus musculus with 8 samples.

Results

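Histone transcripts were compared between the surface and the base of the crypts in epithelium of the mouse distal colon. The genes were chosen by their symbol in the platform's probe annotation, which had to begin with Hist1h, Hist2h, Hist3h, Hist4h, H2ac, H2bc, H3c, H4c, H2af, H2az, H1f or H3f. This gave 53 genes of the 17711 that had a probe of their own, and their 88 probes were kept apart. The linker histone family H1 held 8 of these genes, and the core families H2A, H2B, H3 and H4 held 13, 13, 8 and 11. The histone genes had been put forward because H2A genes were among those with the largest falls in the same comparison. The differences between surface and crypt base, and the calls made from them below, therefore describe these arrays and are not independent support for a change in the family.

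The samples came from male wild-type mice of the C57BL/6 strain aged 10 to 12 weeks, and no treatment or transgene is named. Each of 4 mice gave 1 surface sample and 1 crypt base sample, captured by laser microdissection. The RNA was amplified in successive rounds before it was labelled for Illumina bead arrays. All values are log2 signals, and a difference is the surface value minus that of the crypt base sample with the same replicate number. The design text says that each mouse gave both samples, but not that a shared number marks a shared mouse. Across probes, deviations from the group means correlated at 0.44, 0.39, -0.07 and 0.48 for the samples numbered 1 to 4. They correlated at 0.35 for surface 2 with crypt base 3 and at 0.23 for surface 3 with crypt base 2, which is higher than within number 3, so these data do not bear out the pairing of that number. Every value given by pair carries this limit.

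Core histones form the protein spool around which DNA is wrapped, and H1 binds the DNA between the spools. Most histone genes lie in clusters and are transcribed mainly while DNA is copied, and their transcripts end in a stem-loop in place of a poly(A) tail. Replacement genes such as H3f3b, which encodes the H3.3 protein, lie outside the clusters and are transcribed throughout the cell cycle. Some cluster genes are also known to give polyadenylated transcripts in cells that have stopped dividing. How far the amplified RNA held transcripts without a poly(A) tail was not tested, so the signals need not follow all histone transcripts. In the colon, cells divide in the lower crypt and stop dividing on their way to the surface.

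The stretches before the annotated starts of 4 genes are shown because these genes carry the contrast described below: H2ac6 and H2ac15 had lower signals at the surface, and H2ac18 and H1f2 had higher ones. They are RefSeq sequences of build GRCm38.p6, read 5′ to 3′ in the direction of the gene. Capitals mark exact matches on either strand to the CCAAT box (CCAAT), the TATA box (TATAAA), the octamer of H2B promoters (ATTTGCAT) and the box of H1 promoters (AAACACA), with no overlap between different motifs in these stretches.
H2ac6, chr13:23683960-23684159, minus strand: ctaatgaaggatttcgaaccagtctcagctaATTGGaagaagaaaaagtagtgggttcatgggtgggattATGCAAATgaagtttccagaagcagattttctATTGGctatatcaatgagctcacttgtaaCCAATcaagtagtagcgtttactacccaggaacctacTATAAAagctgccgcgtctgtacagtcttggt
H2ac15, chr13:21753913-21754075, minus strand: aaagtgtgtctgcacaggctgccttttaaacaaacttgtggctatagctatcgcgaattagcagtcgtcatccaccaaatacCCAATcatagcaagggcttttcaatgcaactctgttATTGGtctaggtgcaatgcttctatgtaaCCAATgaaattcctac
H2ac18, chr3:96245297-96245496, plus strand: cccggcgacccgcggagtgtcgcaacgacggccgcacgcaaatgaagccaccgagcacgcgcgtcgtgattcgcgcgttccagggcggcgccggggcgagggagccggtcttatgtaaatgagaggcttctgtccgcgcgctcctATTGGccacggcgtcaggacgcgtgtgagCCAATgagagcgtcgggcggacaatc
H1f2, chr13:23738607-23738806, plus strand: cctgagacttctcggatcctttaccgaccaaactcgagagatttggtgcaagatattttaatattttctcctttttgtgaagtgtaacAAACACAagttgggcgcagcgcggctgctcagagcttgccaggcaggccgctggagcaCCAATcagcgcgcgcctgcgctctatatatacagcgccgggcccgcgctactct

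The H2ac15 stretch is the whole interval between its start and that of H2bc15, an H2B gene that runs the other way. Its 3 CCAAT matches are as many as in the H2ac6 stretch, while H2ac18 has 2 and H1f2 has 1. In H2ac15 and H2ac18 the TATAAA match lies within the 50 bases after the annotated start, which are not shown. Promoter windows of 300 bases were held for 49 of the 53 genes. A CCAAT match was present in 13 of 13 H2A, 11 of 11 H2B, 7 of 7 H3, 7 of 8 H1 and 3 of 10 H4 windows, against 37.4% of 32851 windows of all genes. The octamer was present in 6 H2A, 4 H2B and 1 H3 windows, in none of the H1 or H4 windows, and in 1.74% of all windows. The H1 box was present in 5 of 8 H1, 2 H2A and 1 H2B windows and in 7.18% of all windows. TATAAA was present in 9 H2A, 7 H2B, 4 H3, 7 H4 and 4 H1 windows and in 13.6% of all. Genes whose signals were higher and genes whose signals were lower at the surface both had CCAAT matches. H2A and H2B neighbours such as H2ac15 and H2bc15 share part of their windows, so the same match can count in both families. A match is a run of letters and not a shown binding site.

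Of the 88 probes, 62 were detected on at least 4 of the 8 arrays, which represent 37 of the 53 genes. Only these were fitted, together with all other probes that met this limit, 16013 in all. A probe is said to be called, and to have risen or fallen, where limma's fit with the replicate number as a block gave a Benjamini-Hochberg adjusted p under 0.05 over the 16013 probes. The other 26 histone probes had group means between 4.69 and 5.66, close to the background level of 5.52, and differences between -0.24 and 0.18. They are the only probes of 16 genes, among them H1f1, H1f3, H1f4 and H1f5 and all genes known from germ cells, which are H1f6, H1f7, H1f8, H2ac1 and H2bc1. They were not tested. A probe can pass this limit through 1 group alone, so the counts below describe the fitted probes and not all members.

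Of the 62 fitted histone probes, 13 rose and 10 fell at the surface, while 9.35% and 7.1% of all fitted probes did. The groups did not overlap in 10 probes with the surface above and in 1 with the surface below, against 8.75% and 8.06% of all fitted probes. The median difference was -0.13 over the histone probes and -0.01 over all fitted probes. The families did not share a direction. Medians were -1.0 for 22 H2A probes, 0.28 for 14 H2B probes, -0.22 for 7 H3 probes and -0.13 for 18 H4 probes, and the single H1 probe had a difference of 0.98. The H2A median was -0.56 without replicate 3. Without the replacement gene H3f3b, the H3 median was -0.14 over 6 probes of cluster genes.

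**Figure D1:**
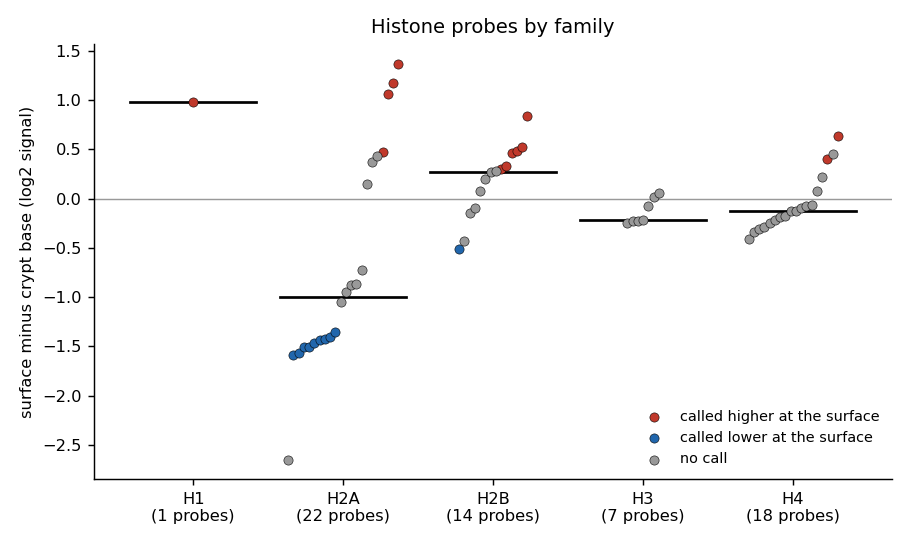
Difference between surface and crypt base (log2 signal) for each of the 62 fitted histone probes, by family. Points are probes, coloured by their call, and bars are family medians. The H2A points split into a group from -2.65 to -0.72 and a group from 0.15 to 1.37, whereas all H3 points lie between -0.25 and 0.06.

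The samples differed among themselves more in part of the H2A probes than in most probes. The median SD over the 4 crypt base samples was 0.81 for the H2A probes, 0.20 for H2B, 0.16 for H3, 0.21 for H4 and 0.16 for all fitted probes. These sets also differed in brightness, with median crypt base means of 10.57, 6.81, 6.58, 6.53 and 6.2 in the same order. The bright probes of H1f2 and H3f3b had crypt base SDs of 0.37 and 0.25. The part of brightness in the SDs was not tested. The high H2A SD comes from the 15 probes with lower means at the surface, whose SDs were 0.67 to 1.17. In the other 7 H2A probes the SDs were 0.06 to 0.2. The sample surface 4 stood apart. On it 184 fitted probes, 5 of them histone probes, lay over 2 log2 units under the median of the remaining 7, and on each other array 2 to 22 did. The 5 were probes of H2ac20, H2bc22, H2ac6, H2ac15 and H2ac13. Their differences, and that of an H4c4 probe, are given below with and without replicate 4.

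Linker histones were represented by H1f2, which encodes a widely expressed H1 protein. Its probe (gene ID 50708, ILMN_2774537) had signals of 11.62, 12.34, 11.63 and 11.53 at the crypt base and of 12.81, 12.87, 12.56 and 12.81 at the surface, in the order of the replicates. Every surface sample lay above every crypt base sample, and crypt base 2 came nearest to the surface values. H1f2 rose by 0.98 ± 0.14 (SE of the fit, n = 4 pairs), a 1.98-fold higher signal, and by 0.89 without replicate 4. Of all fitted histone probes in the surface group, it was the brightest in its mean, 12.76 ± 0.14 (SD, n = 4). The brightness of different probes does not rank the transcripts.

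The H2A probes formed 2 opposite sets. Of 22 fitted probes 15, from 9 genes, had lower means at the surface and 9 of these fell (7.1% of all fitted probes did). The other 7 probes, from 5 genes, had higher means and 4 rose (9.35% of all). The sets differ by cluster and also by brightness. Crypt base means were 6.53 to 12.4 in the 15 probes and 5.48 to 8.17 in the 7, and neither was tested as a cause. Among the genes on chromosome 13, 14 of 17 probes had lower means, with a median of -1.35, and limma called 0 higher (2 at an unadjusted p under 0.05). On chromosome 3, 4 of 5 probes had higher means and all 4 rose, with a median of 1.06 over the 5. These 4 were 2 probes of H2ac18, 1 of H2ac19 and the dimmer probe of H2ac20. The bright H2ac20 probe had a lower mean at the surface.

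H2ac6 had the brightest H2A probe at the crypt base (gene ID 319164, ILMN_1226839). Its signals there were 12.31, 12.59, 13.48 and 11.2 and at the surface 10.65, 12.03, 10.83 and 10.02. Each surface sample was below its partner, but surface 2 exceeded crypt base 4, so the groups overlapped. The mean went from 12.4 ± 0.94 (SD, n = 4) to 10.88 ± 0.84, a difference of -1.51 ± 0.32 (SE), which is 2.85-fold lower at the surface. Without replicate 4 the difference was -1.62.

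H2ac15 (gene ID 319169, ILMN_1245449) had signals of 9.37, 10.33, 11.15 and 8.45 at the crypt base and 7.9, 9.54, 8.14 and 7.36 at the surface. Crypt base 3 was again the highest sample and surface 4 the lowest. This gene fell by 1.59 ± 0.36, a 3.01-fold lower signal, and had a difference of -1.76 without replicate 4. Both probes of H2ac12 fell, with differences of -1.57 ± 0.32 and -1.51 ± 0.34. The probes of H2ac13 (-1.47 and -1.4), the probe of H2ac23 (-1.44), 1 probe of H2ac10 (-1.43) and 1 of H2ac22 (-1.35) fell as well. The H2ac13 probe with -1.47 had -1.53 without replicate 4. The other probe of H2ac10 (-0.95) and 3 further probes of H2ac22 (-1.05 to -0.87) were not called.

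All 15 H2A probes with lower means had the same order of samples at its ends. Crypt base 3 was the highest and crypt base 4 the lowest crypt base sample in 15 of 15, and surface 2 the highest surface sample in 15 of 15. These 3 features were taken from the 15 probes themselves, so their share elsewhere is a description and no independent support. They occurred together in 3.27% of all fitted probes and in 0 of the H2B, H3 and H4 probes and of the other 7 H2A probes. All 4 pairs as numbered were lower at the surface in each of the 15, and surface 2 exceeded crypt base 4 in each. H2A genes of the clusters encode near-identical proteins from similar transcripts, and a probe may also bind transcripts of its relatives. The 15 probes are thus not 15 independent measurements.

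**Figure D2:**
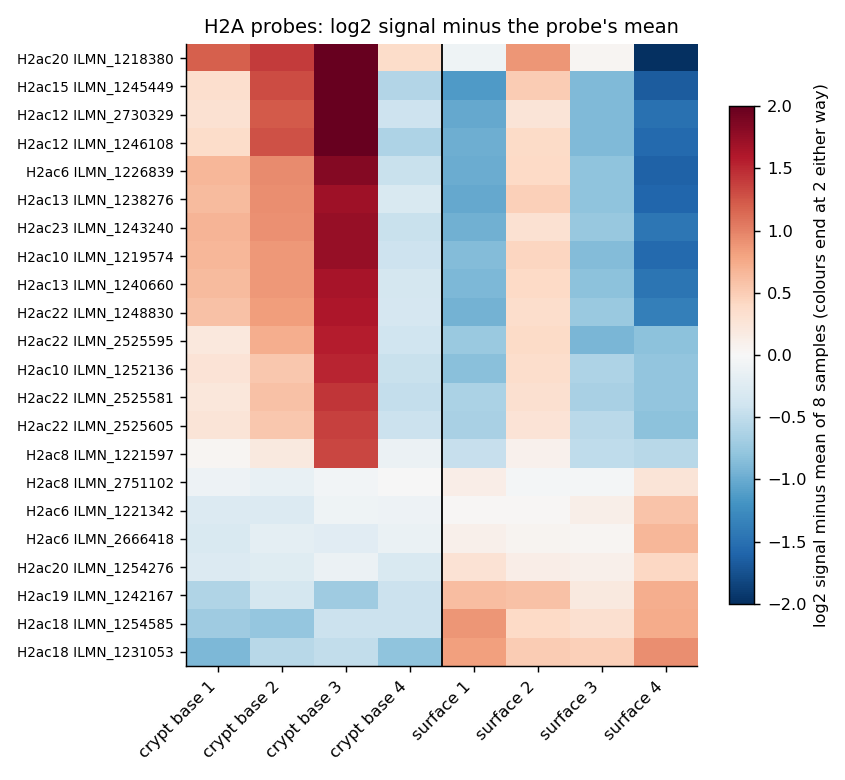
Log2 signal of each fitted H2A probe minus its mean over the 8 samples, with rows ordered by the difference between surface and crypt base. Red is above and blue below the mean; the upper 15 rows are darkest red in crypt base 3, and the lowest rows, of H2ac18 and H2ac19, are red in all 4 surface samples.

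H2ac18 and H2ac19, neighbours on chromosome 3, were the H2A genes with the largest rise. The brighter H2ac18 probe (gene ID 15267, ILMN_1231053) had signals of 7.96, 8.3, 8.37 and 8.06 at the crypt base and 9.68, 9.37, 9.33 and 9.79 at the surface. The lowest surface sample exceeded the highest crypt base sample by nearly a whole log2 unit. It rose by 1.37 ± 0.16, which is 2.59-fold, another H2ac18 probe rose by 1.17 ± 0.14, and the H2ac19 probe rose by 1.06 ± 0.08. The promoter windows of the 2 genes share a run of 219 of 300 bases, and their probes may likewise detect both. The third H2ac18 probe was near background and was not fitted.

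Probes of 1 gene could also differ in direction. Of 21 histone genes with several fitted probes, 5 had probes on both sides of 0, and in 3 of them at least 1 probe was called. Besides the probe that fell, H2ac6 had 2 dimmer probes, ILMN_1221342 and ILMN_2666418, with differences of 0.37 ± 0.1 and 0.43 ± 0.11, neither of them called, although all 4 surface values were above all crypt base values in both. Their surface means were 5.85 and 6.04, near background, where a difference is understated. Without replicate 4 the 2 differences were 0.27 and 0.3.

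The probes of H2ac20, also on chromosome 3, were the most unlike. ILMN_1218380 had 11.91, 12.1, 13.05 and 11.07 at the crypt base and 10.63, 11.59, 10.75 and 4.57 at the surface. The surface 4 value lies below background, while the other 7 are among the brightest histone signals. The difference of -2.65 ± 0.95 was not called, and without replicate 4 it was -1.36. The other probe, ILMN_1254276, rose by 0.47 ± 0.1 from a mean of 5.8 to 6.27, with no overlap of the groups. Its difference without replicate 4 was 0.39, without a call. H2ac8, whose probes had differences of -0.72 ± 0.28 and 0.15 ± 0.08, had no call.

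**Figure D3:**
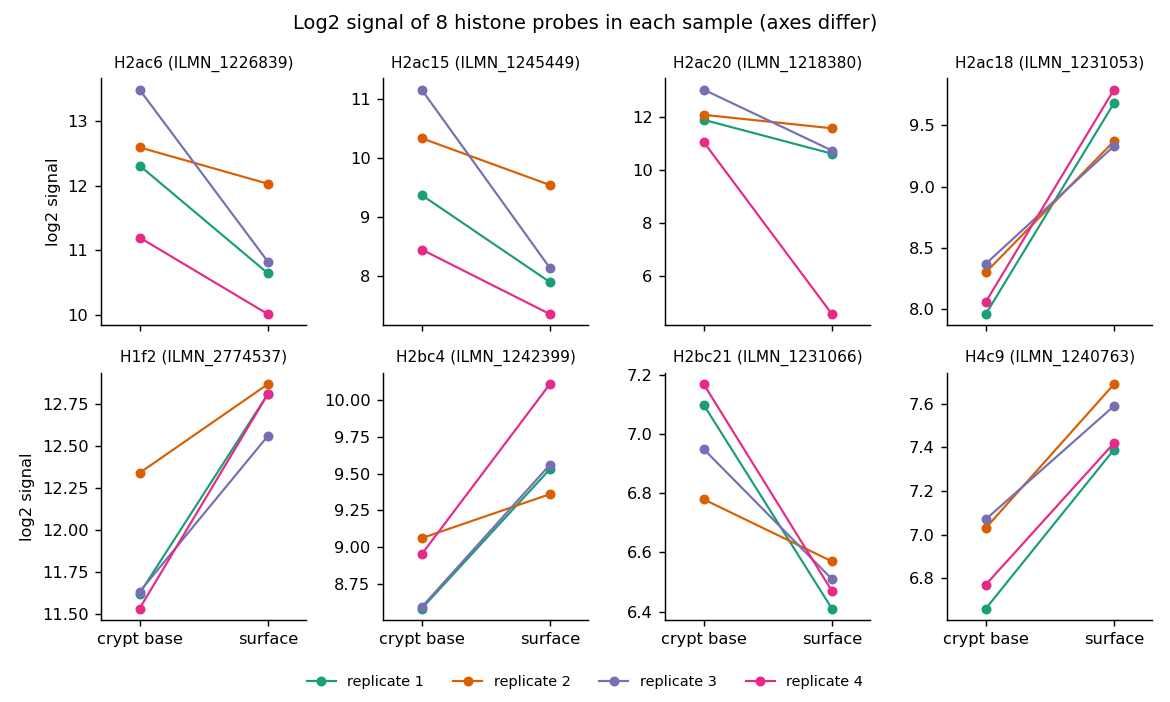
Log2 signals of 8 histone probes at the crypt base and the surface, with 1 line for each replicate number and a vertical axis of its own for each probe. The H2ac6 and H2ac15 lines all fall, most steeply in replicate 3, the H2ac20 line of replicate 4 drops to 4.57, and the H2ac18, H1f2, H2bc4 and H4c9 lines all rise.

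H2B, the partner of H2A in the nucleosome, had mostly higher signals at the surface. Of 14 fitted probes 10 had higher means, 6 probes from 5 genes rose (9.35% of all fitted probes did) and 1 fell (7.1%). The largest rise was that of H2bc4 (gene ID 68024, ILMN_1242399), with signals of 8.58, 9.06, 8.59 and 8.95 at the crypt base and 9.53, 9.36, 9.56 and 10.11 at the surface. All surface samples lay above all crypt base samples, surface 4 being the highest. It rose by 0.84 ± 0.15, which is 1.8-fold, while its dimmer probe had a difference of 0.28 ± 0.11 that was not called.

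Smaller rises were those of H2bc11 (0.52 ± 0.08), H2bc12 (0.46 ± 0.11), H2bc9 (0.3 ± 0.07) and both probes of H2bc7 (0.48 ± 0.07 and 0.33 ± 0.08). The groups did not overlap in the H2bc7 probe with the larger difference, but they did in its other probe and in those of H2bc11, H2bc12 and H2bc9. H2bc21, the H2B gene on chromosome 3, was the exception (gene ID 319190, ILMN_1231066). Its signals were 7.1, 6.78, 6.95 and 7.17 at the crypt base and 6.41, 6.57, 6.51 and 6.47 at the surface. It fell by 0.51 ± 0.11, and it was the only fitted histone probe whose surface samples all lay below the crypt base samples. The second H2bc21 probe had a difference of -0.15 ± 0.09. The H2bc22 probe had a signal of 4.57 in surface 4 and 7.78 to 8.05 in the other surface samples. By its detection p-values it was detected on all 8 arrays, although 4.57 lies below the background level of 5.52. Its difference was -0.43 ± 0.66 with all replicates and 0.49 without replicate 4.

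Many H2A and H2B genes stand head to head, with a short stretch such as the one printed for H2ac15 between their starts. In RefSeq (GRCm38.p6) 9 H2A genes had a histone neighbour whose start, or the edge of whose annotated span, lay within 300 bases upstream, and in 7 of these both genes had a fitted probe. Taking the brightest fitted probe of each gene, the H2A gene had a lower mean at the surface in 7 of 7 and its H2B neighbour a higher mean in 5 of the 7. The 7 of 7 depends on that choice of probe, since H2ac6, H2ac8 and H2ac20 also had the dimmer probes with higher means described above. H2ac12 fell by 1.57 while H2bc12, 178 bases away, rose by 0.46. H2ac6 fell by 1.51 while H2bc4, whose span begins 240 bases away, rose by 0.84. In both of these pairs the neighbours were called in opposite directions.

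H2ac15 fell by 1.59, and H2bc15, 164 bases away, had 0.27 ± 0.08 without a call. H2ac13 and H2bc13 differed in the same way, at -1.4 and 0.2 ± 0.12. H2ac8 and H2bc8 had the smallest values, at -0.72 and 0.08. In the 2 remaining pairs, H2ac20 with H2bc21 and H2ac22 with H2bc22, both genes had lower means, the last through the surface 4 value given above. The H2A gene had the lower difference in all 4 replicate pairs in 6 of the 7. These differences between neighbours were not tested, and a probe that binds several H2A transcripts does not report on its own gene alone.

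**Figure D4:**
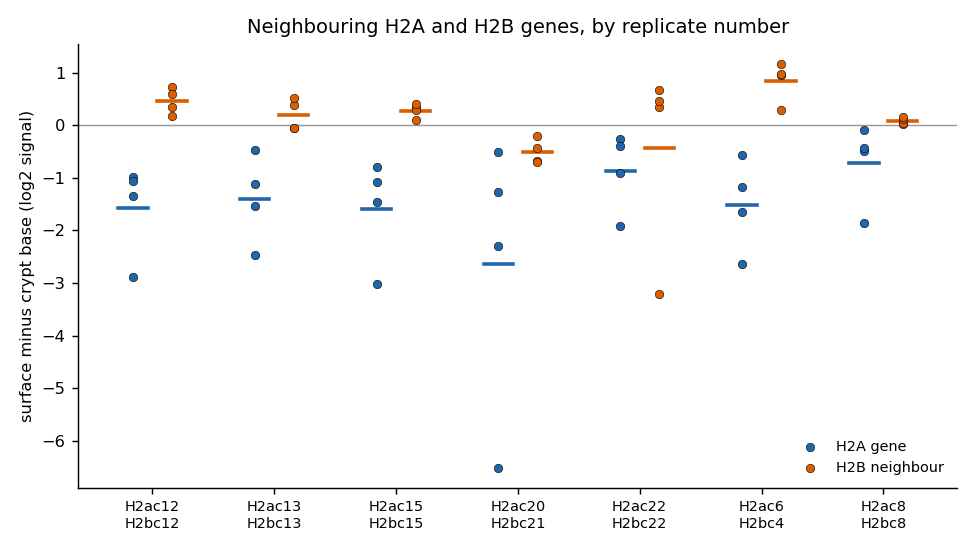
Difference between surface and crypt base (log2 signal) in each of the 4 replicate pairs for 7 H2A genes and their H2B neighbours. Points are pairs and bars their means. The blue H2A points all lie below 0, and the orange H2B points lie mostly above it, apart from those of H2bc21, some of H2bc13 near 0 and the lowest point of H2bc22 at -3.21.

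H3 probes had small differences, from -0.25 to 0.06. By limma 0 of the 7 fitted probes were called in either direction, while 9.35% of all fitted probes rose and 7.1% fell. At an unadjusted p under 0.05 in limma, 0 were higher and 1, H3f3b, was lower. The brightest, H3f3b (gene ID 15081), had signals of 10.75, 11.18, 10.91 and 11.31 at the crypt base and 10.49, 10.88, 10.87 and 10.99 at the surface. The surface was lower in each pair, with a mean difference of -0.23 ± 0.08, but the groups overlapped and the difference was not called. Of the cluster genes, H3c11 had -0.25 ± 0.13 and -0.23 ± 0.12, H3c15 had -0.07 ± 0.14, H3c4 had 0.02 ± 0.12, and the H3c2 probes had -0.22 ± 0.15 and 0.06 ± 0.1. The median over all 7 probes was -0.32 in pair 1 and 0.23 in pair 2, and over the 6 probes of cluster genes -0.38 and 0.25. By these medians the pairs themselves did not share a direction.

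H4, the partner of H3, had 13 of 18 fitted probes with lower means and 5 with higher means. Of the 18, 2 rose (9.35% of all fitted probes did) and limma called 0 lower (7.1% of all, and 1 of the 18 at an unadjusted p under 0.05). The larger rise was that of an H4c9 probe (gene ID 319158, ILMN_1240763), with 6.66, 7.03, 7.07 and 6.77 at the crypt base and 7.39, 7.69, 7.59 and 7.42 at the surface. The groups were fully apart in this probe, and it rose by 0.64 ± 0.07, which is 1.56-fold. The other H4c9 probes had differences of -0.07 ± 0.12 and -0.41 ± 0.18 and were not called.

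H4c8 was the other H4 gene with a rise, by 0.4 ± 0.09 in 1 probe, while its second fitted probe had 0.45 ± 0.13 without a call. Among the lower H4 means were those of H4c6 (-0.31 ± 0.12 and -0.29 ± 0.17), H4c2 (-0.25 ± 0.1 and -0.09 ± 0.12) and the 2 probes of H4c1 (-0.22 ± 0.14 and -0.06 ± 0.13), none called. The 1 H4c4 probe that had a signal of 4.72 in surface 4 had 5.97 to 6.58 in the other samples. This probe too was counted as detected on all 8 arrays, although 4.72 lies below background. Its difference was -0.34 ± 0.37 with all replicates and 0.15 without replicate 4. The median of the H4 probes was -0.36 in pair 3 and 0.29 in pair 2.

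The calls depended on the block and on single replicates. Without the replicate block 7 histone probes rose (5.64% of all fitted probes did) and 1 fell (4.29%). Those were the probes of H1f2, H2ac18, H2ac19, H2bc4, the dimmer H2ac20 probe and the H4c9 probe, and the fall of H2bc21. No H2A fall was called without the block. Without replicate 2, 9 rose and 14 fell (9.38% and 8.96% of all), the falls including 1 H3c11 probe and 1 probe each of H4c2, H4c6 and H4c9. Without replicate 3, 6 rose and 3 fell (3.91% and 1.6%), the falls being those of H2ac15 and H2ac12. Without replicate 4, 5 rose and 0 fell (2.61% and 0.456%), with 33 histone probes at an unadjusted p under 0.05 in limma. Those 5, which rose in each of these fits, were the probes of H1f2, H2ac18 and H2ac19 and that of H4c9. Without replicate 1, limma called 0 probes of any gene (0% in both directions), with 3681 probes, 27 of them histone probes, at an unadjusted p under 0.05.

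Genes that work with histones were taken from lists and represented by their brightest probe. The 27 falls of the 5 lists became 0, 32, 4 and 1 without replicates 1, 2, 3 and 4. Of all fitted probes 7.1% fell with all replicates, and 0%, 8.96%, 1.6% and 0.456% without replicates 1, 2, 3 and 4. No gene of these lists rose with all replicates (1 was higher at an unadjusted p under 0.05 in limma). Of 20 fitted DNA replication genes 12 fell (7.1% of all fitted probes did), with a median difference of -0.61. The falls had differences of -1.34 ± 0.27 for Uhrf1, a factor of DNA methylation upkeep, of -1.27 ± 0.33 and -1.2 ± 0.2 for the helicase genes Mcm5 and Mcm4, and of -1.03 ± 0.15 for Fen1, a flap nuclease. In 15 of the 20 the groups did not overlap, with the surface below, against 8.06% of all fitted probes. They overlapped in each H2A probe that fell. The median difference of the DNA replication genes was -1.01, -0.19, -0.62 and -0.68 in pairs 1 to 4. Over all 22 fitted H2A probes, with both opposite sets together, it was -1.03, -0.31, -2.22 and -0.44. Over the 17 fitted H2A probes of chromosome 13, of which 14 had lower means, it was -1.34, -0.43, -2.46 and -0.94.

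Chaperones, which carry histones to DNA, were lower as well. Of 18 fitted genes of that list 8 fell (7.1% of all fitted probes did), and the median was -0.5. The differences were -1.0 ± 0.1 for Set, a histone chaperone of the nucleus, -0.84 ± 0.15 for Hat1, which acetylates new H4, -0.78 ± 0.15 for Ncl, the nucleolin gene, and -0.77 ± 0.14 for Hirip3, which encodes a HIRA-binding protein. The largest opposite difference was that of Vps72, at 0.19 ± 0.07. Nasp, a chaperone of H1 and H3, fell by 0.65 ± 0.11, and the subunit genes Chaf1a and Chaf1b of the assembly factor CAF-1 had -0.6 ± 0.2 and -0.59 ± 0.19 without a call.

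The list of histone mRNA processing and transcription had a median of -0.13, against -0.01 over all fitted probes. Of its 12 fitted genes 11 had lower means and 2 fell (7.1% of all fitted probes did), with 3 lower at an unadjusted p under 0.05 in limma. The falls were -0.57 ± 0.1 for Cstf2, of the 3′ end processing complex, and -0.4 ± 0.09 for the kinase gene Cdk2. Only Nfya, a subunit of the CCAAT-binding factor NF-Y, had a higher mean, with 0.15 ± 0.13. The genes of the stem-loop binding protein, Slbp, and of Npat, a coactivator of histone genes, were detected on 0 of the 8 arrays. Among other histone-fold proteins, Cenpa, the centromeric H3 variant, and Drap1, a transcription corepressor, fell, with differences of -1.09 ± 0.21 and -0.53 ± 0.1, and the other 4 of 6 were not called. Of 5 non-histone chromatin genes 3 fell (7.1% of all fitted probes did). The differences were -1.07 ± 0.17 for Hmgn1, -0.52 ± 0.11 for Hmgn5 and -0.47 ± 0.11 for Hmgb1, all of them proteins that bind nucleosomes or DNA.

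**Figure D5:**
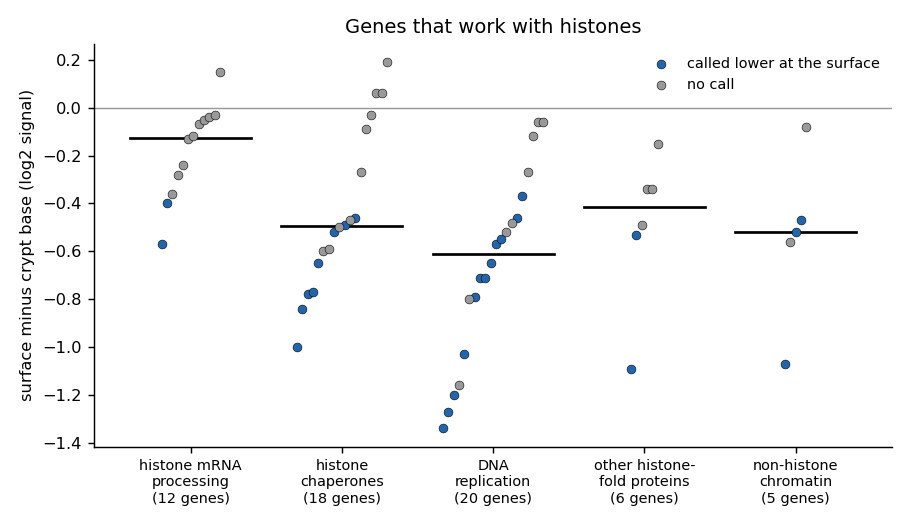
Difference between surface and crypt base (log2 signal) for the fitted genes of 5 lists. Points are genes, coloured by their call, and bars are list medians. No gene of these lists rose, and the medians lie between -0.61 for DNA replication and -0.13 for histone mRNA processing.

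Markers of other cells were above background beside those of the epithelium. The brightest epithelial marker, Krt8, rose by 0.79 ± 0.13 from a crypt base mean of 12.21, and 5 of 5 fitted surface colonocyte markers rose (9.35% of all fitted probes did). The defining crypt base marker Lgr5 was detected on 0 arrays, while Smoc2 and Axin2 fell, with differences of -0.9 ± 0.17 and -0.72 ± 0.17. Smooth muscle markers had lower means at the surface in 6 of 6 fitted genes, with 0 calls by limma (4 lower at an unadjusted p under 0.05), and the brightest, Acta2, had means of 12.59 at the crypt base and 11.75 at the surface. Their summed linear signal ranged from 6595 to 25530 at the crypt base and from 2126 to 12039 at the surface. Their median difference was -1.08, -1.51, 0.25 and -1.17 in pairs 1 to 4. The summed signal of 5 leukocyte markers ranged from 1863 to 4768 and from 1818 to 5752, that of 6 fibroblast markers from 1578 to 3121 and from 1824 to 2456, and that of 6 endothelial markers from 791 to 1059 and from 894 to 1121, in the same order. The brightest of these were Laptm5, Dcn and Pecam1, and the defining leukocyte marker Ptprc was detected on 0 arrays. Col3a1 rose and Cldn5 fell, and the other genes of the 3 lists were not called. The part of other cells in the histone differences was not tested, and in bulk samples fewer cells of a type and less RNA per cell cannot be told apart.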

How the data were processed

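RNA of 8 samples was measured on Illumina bead arrays. The deposited log2 signals cover 46632 probes. The submitters' processing notes name GenomeStudio; its version and the way the arrays were normalized are not stated there. The sorted arrays differed by under 0.01 at 99% of ranks, so they had been made equal in distribution by the authors and were tested as deposited. From a second deposited table the detection p-value of each probe was taken, per the file headers, only to count on how many of 8 arrays it was under 0.05. The 8 columns of signals in that table carry names found in no label, and they were left out. Between 32.3% and 35.3% of probes were detected per array. As many values exceeded a log2 signal of 5.52, called background, as had such a p. Precision is limited by how few arrays there were.

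Of the probes, 29976 had 1 gene symbol, 10 several and 16646 none in the platform annotation. Surface and crypt base were compared over all probes detected on at least 4 arrays with limma 3.58.1 in R 4.3.3 (lmFit, eBayes, two-sided, Benjamini-Hochberg at 0.05), with the replicate number as a block, 3 residual and 2.95 prior degrees of freedom. The design text gives 1 sample of each region per mouse; that the number marks the mouse was taken as given, and the check of the numbers stands with the description of the samples. P-values measure only the spread between these samples. The alternatives changed the block, filter, scaling, offset, weights, variance trend, probes per gene and replicates, with statmod 1.5.0 for the random block. Named probes were, per family, up to 4 with the largest differences, the brightest, the largest opposite one, and genes whose probes differ in sign with 1 called. From the lists, up to 4 called genes and the largest opposite one were named. Other names, given to account for calls, neighbour pairs or markers, were chosen after their values were seen. Members, lists and rules were chosen with earlier results of these data known. Promoter windows were taken from RefSeq (GRCm38.p6), from 250 bases before to 50 after each start, and a script searched them for exact letters.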

Additional observations from a re-analysis of the deposited data

Results flagged for a closer look

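In groups of 4 samples, 13 of 124 tested sets of values (62 fitted histone probes in both groups) had a sample set far apart from the other 3, and chance flags about 5% of groups. Surface 4 was apart in 4 probes, at 4.57 for H2ac20 (ILMN_1218380, others 10.63 to 11.59), 4.57 for H2bc22 (others 7.78 to 8.05), 4.72 for H4c4 (ILMN_1244220, others 6.3 to 6.58) and 6.49 for H2ac6 (ILMN_2666418, others 5.87 to 5.92). Surface 2 was apart and higher in 3 H2A probes, at 11.63 and 11.38 for H2ac22 (ILMN_2525581 and ILMN_2525595) and 6.26 for H2ac8 (ILMN_1221597). Crypt base 2 was apart in 5 probes, higher at 12.34 for H1f2 and 6.8 for H2bc6, and lower at 6.53 for H3c15, 6.14 for H3c2 (ILMN_2748164) and 7.31 for H4c1 (ILMN_1217362). Crypt base 4 was apart in H4c8 (ILMN_2525554), at 6.8 against 6.48 to 6.52 in the other samples.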

How the results depend on the processing

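Without the replicate block 903 probes of all genes rose and 687 fell, against 1498 and 1137, and 7 histone probes rose and 1 fell, against 13 and 10. With the numbers left out in turn, all probes called higher ranged from 0 to 1502 and lower from 0 to 1435, histone probes from 0 to 9 and from 0 to 14, and the companion genes that fell from 0 to 32, against 27. All counts of 0 at the low end came without replicate 1, that of histone falls also without replicate 4. Array weights gave 1727 probes lower, and 1 probe per gene gave 6 histone falls. An offset of 50 moved the H2B median from 0.28 to 0.17, beyond the SD of its pair medians, 0.08. All other moves of the 4 medians were below these SDs, which were 0.87 for H2A, 0.24 for H3 and 0.27 for H4. For H3 and H4 the SDs exceed the size of the medians, so this limit could hardly be passed. Over the alternatives the medians ranged from -1.4 to -0.56 for H2A, from -0.24 to -0.07 for H3 and from -0.26 to -0.02 for H4. No probe named by the rule that was called changed sign under these alternatives. Uncalled signs turned with a replicate left out for H3c15 (-0.23 to 0.05), H3c2 (ILMN_2592253, -0.03 to 0.14), H4c1 (ILMN_1217362, -0.2 to 0.05, with 0.01 without replicate 1) and H4c9 (ILMN_1232524, -0.2 to 0.03). The fits without a replicate had 6 samples in place of 8, and 1 probe per gene left 37 histone probes; the cause of the other changes was not tested. Fold changes of probes near background are understated.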
